A study of Mus musculus with 4 samples.

Results

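The aldehyde dehydrogenase and aldo-keto reductase genes were examined in cultured primary ductal cells of the mouse pancreas. Members were the symbols that begin with Aldh or Akr and a digit, which gave 37 of the 22869 gene symbols in the deposited tables, 20 Aldh and 17 Akr genes. For each symbol the transcript with the highest mean count over the 4 libraries was used, and 3 members had several transcripts. The knockout-labelled libraries (n = 2) came from adult mice of the genotype Sox9CreER;HhexL/L, in which a tamoxifen-inducible Cre under the Sox9 promoter can act on floxed alleles of Hhex, a homeobox transcription factor. The control libraries (n = 2) came from HhexL/L littermates with the floxed alleles and no Cre. All mice are labelled C57BL/6, and the cells of both groups were exposed in culture to 500 nM 4-hydroxytamoxifen, which activates the Cre, for 4 days. No group carried the Cre without floxed alleles, so the Cre and the loss of Hhex cannot be told apart.

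Aldehyde dehydrogenases oxidise aldehydes to carboxylic acids with NAD or NADP. Some make retinoic acid from retinaldehyde, some clear acetaldehyde or the fatty aldehydes of lipid peroxidation, and some are steps of amino acid and folate metabolism. Aldo-keto reductases work in the other direction and reduce aldehydes and ketones, including sugars and steroids, to alcohols with NADPH. In the mouse pancreas, high aldehyde dehydrogenase activity is known as a property of centroacinar and terminal duct cells.

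Libraries held between 25257778 and 39582625 counts over the 28644 RefSeq transcripts. Hhex transcript was no scarcer under the knockout label: the knockout-labelled libraries held 23.6 and 39.0 CPM (counts per 1e6, after TMM scaling), the controls 24.8 and 17.7 CPM. Which exons the floxed alleles span is not in the labels, so these counts do not settle whether the deletion took place. Sex was not balanced, since Xist reached 304 CPM in the second knockout-labelled library and 0.750 to 1.75 CPM elsewhere, and its part in the results below was not tested. Keratin 8 and keratin 18, the keratins of simple epithelium, stood between 3521 and 9242 CPM in every library, and Krt7 and Krt19 of ductal cells between 552 and 1331 CPM. Of the 14 ductal markers, 3 (21.4%) were higher and 6 (42.9%) lower without overlap, against 18.8% and 17.4% over all symbols tested. Only Tm4sf4 passed edgeR, at 30.2 and 29.7 CPM in the knockout-labelled libraries, against 114 and 79.2 CPM in the controls (edgeR adjusted p = 0.0421). Sox9, next by p, was higher, at 52.3 and 44.3 CPM in the knockout-labelled libraries and at most 21.4 CPM in the controls (edgeR adjusted p = 0.0521). Krt7 and Cdh1 were the others higher without overlap. Muc1, a mucin of the duct surface, stood at 1.79 and 7.35 CPM in the knockout-labelled libraries and at 22.7 and 19.2 CPM in the controls. Macrophage and myeloid markers summed to 127 and 214 CPM in the knockout-labelled libraries and to 165 and 149 CPM in the controls, mostly Cd14, while Ptprc stayed at or under 0.801 CPM. Endothelial, acinar, endocrine and lymphocyte marker lists each summed to at most 9.69 CPM in any library. Mesothelial markers summed to 3144 and 4494 CPM in the knockout-labelled libraries and to 1589 and 2016 CPM in the controls, nearly all of it Msln, with 2 of the 7 tested higher and 1 lower without overlap. Hepatocyte markers summed to 53.5 and 5.52 CPM in the knockout-labelled libraries and to 87.2 and 60.9 CPM in the controls, most of it Trf except in the second knockout-labelled library, and Alb stayed at or under 0.765 CPM throughout.

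Both families contain recent tandem copies, which bears on how their counts can be read. On chromosome 13, 9 members follow each other in the order Akr1c14, Akr1c18, Akr1c13, Akr1c19, Akr1c12, Akr1c6, Akr1c20, Akr1c21 and Akr1e1. Akr1b3, Akr1b8, Akr1b10 and Akr1b7 lie together on chromosome 6, and Aldh1a1 and Aldh1a7 are neighbours on chromosome 19. Of the 50-base stretches of the Akr1c13 transcript, 28.6% also occur in Akr1c12, the closest pair of members, and 7.54% of those of Aldh1a1 occur in Aldh1a7. How the authors' counting treated reads that fit several copies is not given in the sources used here, so values of a pair are uncertain as separate genes.

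The promoters of these pairs are shown because Akr1c13, Akr1c12 and Aldh1a1 are the 3 members with the lowest p in the comparison below, and Aldh1a7 is the copy of Aldh1a1. Each window runs from 250 bases before to 50 bases after the RefSeq start, with coordinates of assembly GRCm38.p6, and capitals mark the longest run that is identical within the pair. Akr1c13 lies at chr13:4190937-4191236 on the plus strand and Akr1c12 at chr13:4279350-4279649 on the minus strand. Their windows were identical at 284 of 304 aligned positions (93.4%), and the capitals mark 75 bases.
Akr1c13: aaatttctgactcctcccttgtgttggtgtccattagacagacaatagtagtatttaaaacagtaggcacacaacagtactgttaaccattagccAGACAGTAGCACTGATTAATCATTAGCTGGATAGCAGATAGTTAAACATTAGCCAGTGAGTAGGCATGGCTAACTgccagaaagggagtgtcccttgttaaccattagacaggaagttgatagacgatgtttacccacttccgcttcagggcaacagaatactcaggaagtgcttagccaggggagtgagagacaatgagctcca
Akr1c12: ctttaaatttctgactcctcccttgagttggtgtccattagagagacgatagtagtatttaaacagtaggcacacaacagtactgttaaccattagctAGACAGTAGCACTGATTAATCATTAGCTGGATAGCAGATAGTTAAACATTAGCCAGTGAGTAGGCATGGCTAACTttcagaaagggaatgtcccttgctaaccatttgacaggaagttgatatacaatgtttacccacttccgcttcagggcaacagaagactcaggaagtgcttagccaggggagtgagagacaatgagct

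The windows of Aldh1a1 (chr19:20601718-20602017, plus strand) and Aldh1a7 (chr19:20727507-20727806, minus strand) were identical at 231 of 319 aligned positions (72.4%), and the capitals mark 65 bases. Another RefSeq start of Aldh1a1, with a window less like that of Aldh1a7, is not shown.
Aldh1a1: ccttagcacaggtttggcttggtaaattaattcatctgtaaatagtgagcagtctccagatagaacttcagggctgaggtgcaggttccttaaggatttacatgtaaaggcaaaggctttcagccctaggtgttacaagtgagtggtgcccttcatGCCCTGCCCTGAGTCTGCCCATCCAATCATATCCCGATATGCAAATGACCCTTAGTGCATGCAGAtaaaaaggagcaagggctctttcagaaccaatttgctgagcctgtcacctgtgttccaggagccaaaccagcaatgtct
Aldh1a7: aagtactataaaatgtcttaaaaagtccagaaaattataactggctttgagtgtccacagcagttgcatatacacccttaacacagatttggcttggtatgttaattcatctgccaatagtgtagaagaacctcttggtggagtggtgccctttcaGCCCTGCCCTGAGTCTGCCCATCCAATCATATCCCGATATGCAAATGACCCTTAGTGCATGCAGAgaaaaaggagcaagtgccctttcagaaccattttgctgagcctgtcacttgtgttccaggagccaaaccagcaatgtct

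Among the 31 promoter windows of the 29 members with an entry, 4 (12.9%) held the core of the antioxidant response element, TGACNNNGC on either strand, against 12.4% of all 32851 windows. They belonged to Akr1c19, Akr1cl, Aldh1a2 and Aldh9a1. Direct repeats of AGGTCA or GGTTCA with a spacing of 1, 2 or 5 bases, which retinoic acid receptors can bind, were in none of the 31, and in at most 0.177% of all windows for any spacing.

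Per length of transcript, Akr1a1 and Aldh1a1 were the most abundant members. In the authors' deposited RPKM, Akr1a1, an aldehyde reductase that in mice serves vitamin C synthesis, stood at 226 and 203 RPKM in the knockout-labelled libraries and at 152 and 180 RPKM in the controls. Aldh1a1, a cytosolic retinaldehyde dehydrogenase, came next with 171 and 96.2 RPKM in the knockout-labelled libraries and 34.6 and 61.1 RPKM in the controls. Aldh2, the mitochondrial acetaldehyde dehydrogenase, followed at 36.7 to 42.9 RPKM over the 4 libraries, and it was above Aldh1a1 in the first control. The next member, Akr1b8, was not separated from Aldh2, since its 17.9 to 41.7 RPKM overlapped those of Aldh2. At the other end, 14 members averaged under 1 RPKM, among them every Akr1c gene but Akr1c13.

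**Figure D1:**
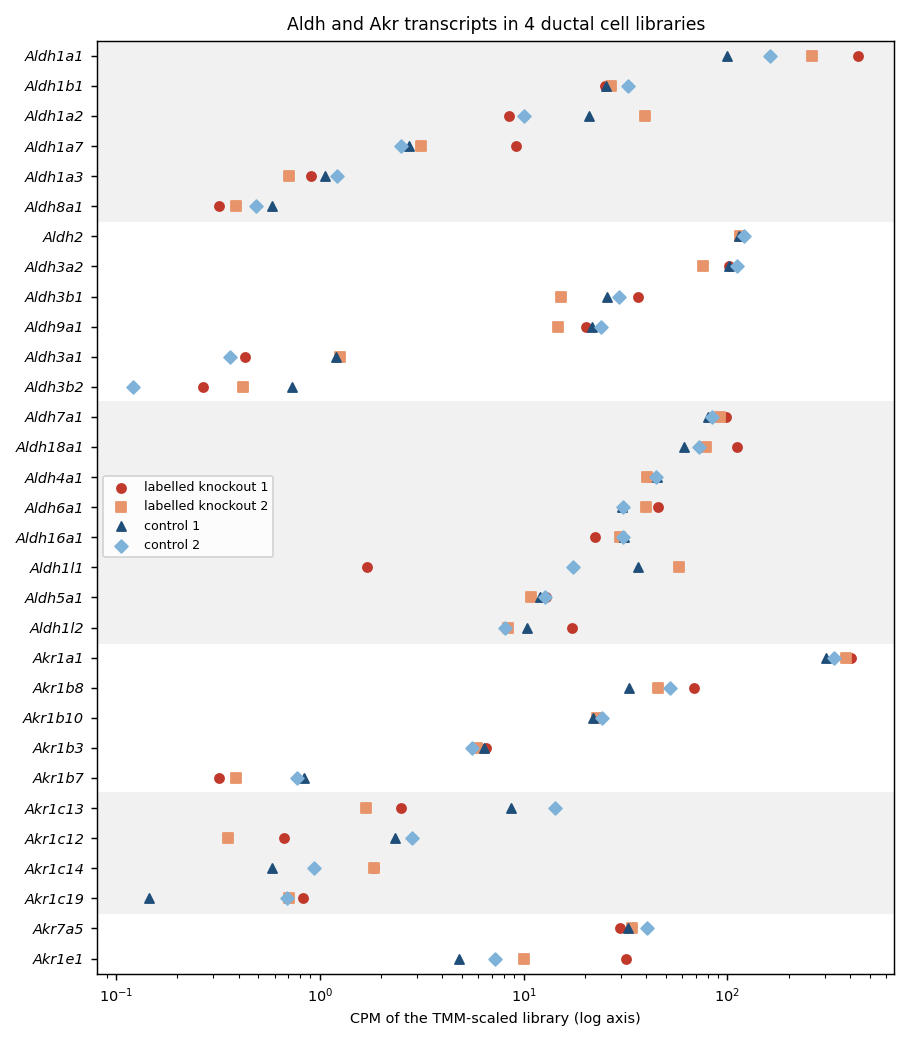
CPM on a log axis of the 31 tested members in the 4 libraries, with red circles and orange squares for the knockout-labelled libraries and dark triangles and light diamonds for the controls. Rows are grouped by role in alternating bands, and the knockout-labelled library with the lowest Aldh1l1 stands at 1.71 CPM, far left of the 17.4 to 57.9 CPM of the others.

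No member passed the threshold in the comparison of the knockout-labelled libraries with the controls. In edgeR's quasi-likelihood test, 0 of the 31 members tested had an adjusted p under 0.05, against 0.177% of the 20949 transcripts tested (0.129% higher and 0.0477% lower). Counted in the same fit over 1 transcript per symbol, that background was 0.151%. At an unadjusted p under 0.05 there were 6 higher and 2 lower members, where 7.46% of all symbols tested passed, 4.63% higher and 2.83% lower. The 6 higher were Aldh1a1, Akr1e1, Aldh6a1, Akr1c14, Aldh1a7 and Aldh18a1, and the 2 lower were Akr1c13 and Akr1c12. In CPM the groups did not overlap for 9 higher and 9 lower members of the 31, 29.0% in each direction. Over all symbols tested the shares were 18.8% higher and 17.4% lower. Among the lower members, the groups overlapped in the authors' RPKM for Aldh3a2, Aldh9a1, Aldh16a1 and Aldh4a1. No such count over all symbols was made in RPKM. The 2 scalings differ for transcripts in general. The median log2 fold change of all transcripts was -0.0089 in the main fit. It was 0.033 on log2(RPKM + 1) and 0.052 on log2(RPKM + 0.1). The median log2 fold change of the tested members was 0.0058, and that of all symbols tested was -0.012. The other 6 members had too few counts to be tested. With n = 2 per group the p-values rest on the spread between those animals' cultures and on the spread shared across transcripts. In RNA of whole cultures, fewer cells that express a gene and less of its RNA per cell cannot be told apart.

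**Figure D2:**
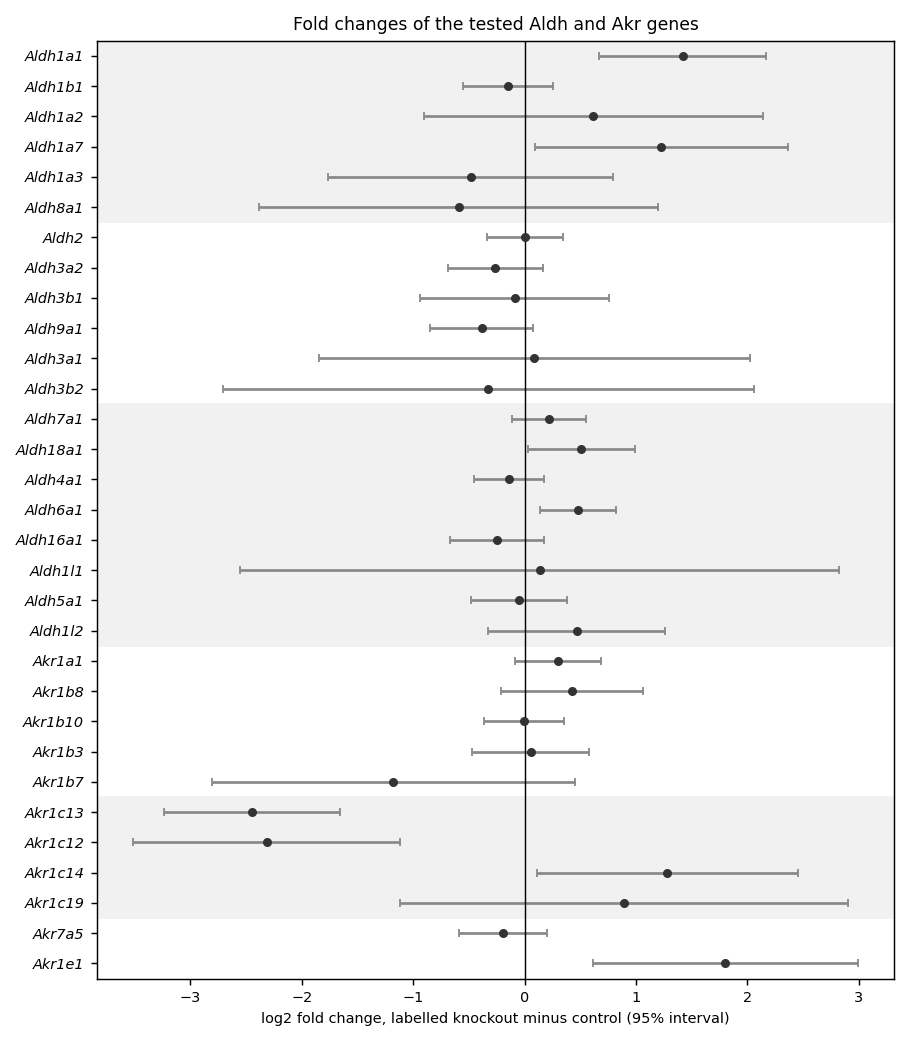
Log2 fold change of each tested member, labelled knockout minus control, with its 95% interval, in the same rows as the plot of CPM by library. The interval excludes 0 for Aldh1a1, Aldh1a7, Aldh6a1, Aldh18a1, Akr1c14 and Akr1e1 on the right and for Akr1c13 and Akr1c12 on the left, although none has an adjusted p under 0.05.

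The retinaldehyde dehydrogenases were led by Aldh1a1, which was higher in both knockout-labelled libraries. Aldh1a1 (NM_013467) stood at 438 and 260 CPM in the knockout-labelled libraries and at 99.1 and 162 CPM in the controls. The lowest knockout-labelled library was thus above the highest control, while the 2 libraries within each group also lay well apart. Its log2 fold change was 1.42 ± 0.32 (SE), 2.67-fold, with a 95% interval of 0.67 to 2.17 and an edgeR adjusted p of 0.243. Aldh1a1 passed the threshold in 4 of the 12 alternatives that kept every library, namely the edgeR exact test, DESeq2 and limma-trend with either pseudocount, and their adjusted p ran from 3.26e-04 to 0.342 over the 12.

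Aldh1a7, the neighbouring copy of Aldh1a1, stood at 9.13 and 3.13 CPM in the knockout-labelled libraries and at 2.73 and 2.51 CPM in the controls. Its log2 fold change was 1.23 ± 0.48 (SE; edgeR adjusted p = 0.613), and it was 0.23 without the first knockout-labelled library, the only one well above the rest. The count of Aldh1a7 was 2.08% and 1.20% of that of Aldh1a1 in the knockout-labelled libraries and 2.76% and 1.55% in the controls.

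Aldh1a2, the retinaldehyde dehydrogenase of the embryo and of mesenchyme, did not separate the groups. It stood at 8.52 and 39.3 CPM in the knockout-labelled libraries and at 21.0 and 10.1 CPM in the controls, so the lowest and the highest value both belonged to the knockout-labelled libraries. The log2 fold change of 0.62 ± 0.65 (SE; edgeR adjusted p = 0.933) became -0.89 without the second knockout-labelled library and 1.30 without the first. Fibroblast and stellate markers summed to 15.1 and 37.7 CPM in the knockout-labelled libraries and to 42.7 and 28.5 CPM in the controls. Without overlap, 0 of 12 tested were higher and 4 (33.3%) lower, against 18.8% and 17.4% over all symbols tested. Of the fold changes, 2 were positive and 10 negative. Sparc had the smallest p of the list (edgeR adjusted p = 0.0609). It stood at 4.53 and 3.48 CPM in the knockout-labelled libraries and at 12.0 and 13.05 CPM in the controls. Fbn1, fibrillin, gave more of the sum in the second knockout-labelled library than any other marker, at 0.616 and 21.8 CPM in the knockout-labelled libraries and 10.9 and 0.851 CPM in the controls. The part of these markers in the Aldh1a2 values was not tested.

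Aldh1b1, a mitochondrial dehydrogenase that marks pancreatic progenitors in mice, was even across libraries. Aldh1b1 stood at 25.1 and 26.9 CPM in the knockout-labelled libraries and at 25.2 and 32.5 CPM in the controls, a log2 fold change of -0.15 ± 0.17 (SE; edgeR adjusted p = 0.945). Aldh1a3, another retinaldehyde dehydrogenase, and Aldh8a1 were scarce, with at most 1.22 CPM and at most 0.583 CPM in any library. By RPKM, Aldh1a1 was the highest of the Aldh1a genes in each of the 4 libraries.

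Among the enzymes for acetaldehyde, fatty and amino aldehydes, the level of Aldh2 was nearly the same in all 4 libraries. Aldh2 stood at 120 and 116 CPM in the knockout-labelled libraries and at 114 and 120 CPM in the controls, with a 95% interval of its log2 fold change from -0.33 to 0.35. Aldh3a2, the fatty aldehyde dehydrogenase of the endoplasmic reticulum, stood at 101.8 and 76.2 CPM in the knockout-labelled libraries and at 102.1 and 111 CPM in the controls (log2 fold change -0.26 ± 0.18, SE; edgeR adjusted p = 0.877). Aldh9a1, which serves carnitine synthesis, stood at 20.2 and 14.7 CPM in the knockout-labelled libraries and at 21.6 and 24.0 CPM in the controls. For both genes the groups did not overlap in CPM, and the second knockout-labelled library was the lowest. In the authors' RPKM the groups overlapped for both. There Aldh3a2 stood at 25.8 and 18.3 RPKM in the knockout-labelled libraries and at 23.1 and 27.2 RPKM in the controls. Aldh9a1 stood at 5.64 and 3.92 RPKM in the knockout-labelled libraries and at 5.40 and 6.48 RPKM in the controls.

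Aldh3b1, which acts on lipid aldehydes, was split within the knockout-labelled libraries. It stood at 36.5 and 15.3 CPM there, on either side of the 25.7 and 29.4 CPM of the controls. Aldh3a1, known from the cornea, and Aldh3b2 reached at most 1.26 CPM in any library.

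Of the 8 enzymes of amino acid and folate metabolism, Aldh6a1 and Aldh18a1 were higher in both knockout-labelled libraries with an unadjusted p under 0.05. Aldh6a1, the methylmalonate semialdehyde dehydrogenase of valine breakdown, stood at 45.5 and 39.7 CPM in the knockout-labelled libraries and at 30.4 and 30.7 CPM in the controls. Here the controls differed by far less than the groups, and the log2 fold change was 0.48 ± 0.15 (SE; edgeR adjusted p = 0.440). Aldh18a1, the synthase of the proline precursor pyrroline-5-carboxylate, stood at 112 and 78.5 CPM in the knockout-labelled libraries and at 61.5 and 72.5 CPM in the controls (log2 fold change 0.51 ± 0.20, SE; edgeR adjusted p = 0.622).

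Aldh4a1, the mitochondrial enzyme that breaks down the same intermediate on the way to glutamate, stood at 41.3 and 40.3 CPM in the knockout-labelled libraries and at 45.0 and 44.9 CPM in the controls. The difference lay in the other direction from Aldh18a1 and was small, with a log2 fold change of -0.14 ± 0.13 (SE; edgeR adjusted p = 0.926). Aldh7a1, the lysine pathway enzyme, stood at 98.9 and 92.5 CPM in the knockout-labelled libraries and at 80.4 and 84.0 CPM in the controls. Aldh16a1, which in mammals lacks the catalytic cysteine, stood at 22.3 and 29.8 CPM in the knockout-labelled libraries and at 31.3 and 30.7 CPM in the controls. In CPM Aldh7a1 was thus higher and Aldh16a1 lower without overlap, with edgeR adjusted p values of 0.858 and 0.886. In the authors' RPKM the groups overlapped for Aldh16a1. Aldh5a1, the succinate semialdehyde dehydrogenase of GABA breakdown, stood at 12.9 and 10.9 CPM in the knockout-labelled libraries and at 12.0 and 12.7 CPM in the controls.

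The folate enzyme Aldh1l1 varied more between libraries of 1 group than any other named member. Aldh1l1, the cytosolic 10-formyltetrahydrofolate dehydrogenase, stood at 1.71 and 57.9 CPM in the knockout-labelled libraries and at 36.6 and 17.4 CPM in the controls. These values rest on 64 and 1796 counts in the knockout-labelled libraries and on 1004 and 430 counts in the controls. The fitted log2 fold change of 0.14 ± 1.14 (SE; edgeR adjusted p = 0.993) therefore summarises libraries at opposite ends, and it was -4.00 without the second knockout-labelled library and 1.07 without the first. Aldh1l2, the mitochondrial counterpart, stood at 17.3 and 8.39 CPM in the knockout-labelled libraries and at 10.4 and 8.15 CPM in the controls (log2 fold change 0.47 ± 0.34, SE; edgeR adjusted p = 0.891).

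**Figure D3:**
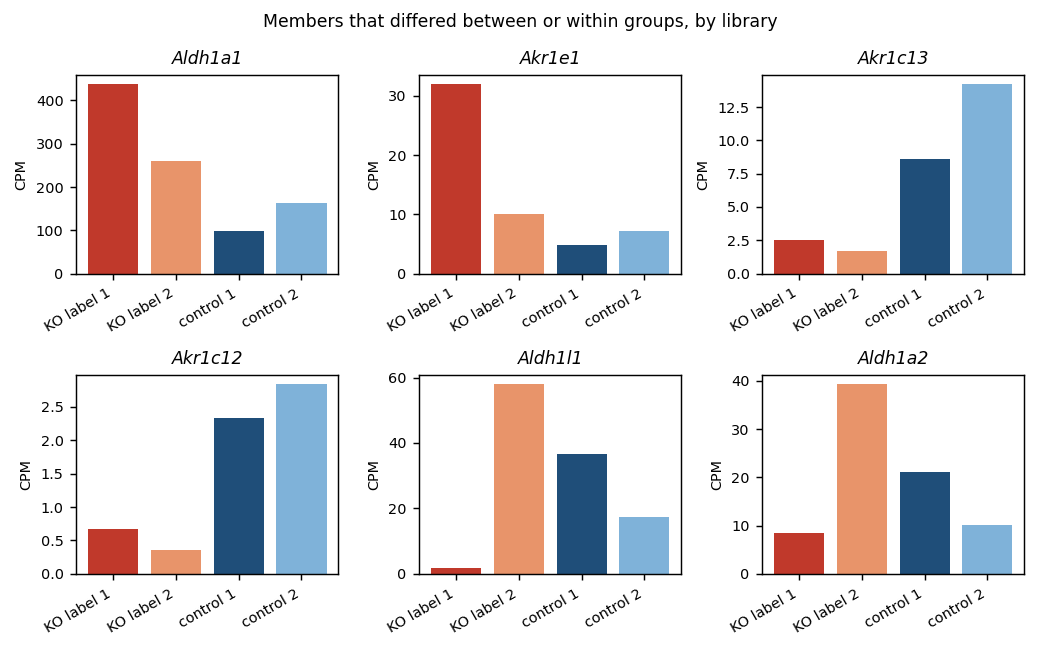
CPM by library of 6 members, with the knockout-labelled libraries left of the controls in each panel and the axis starting at 0. Aldh1a1 and Akr1e1 are higher and Akr1c13 and Akr1c12 lower in both knockout-labelled libraries, while Aldh1l1 and Aldh1a2 have their lowest and highest values within the knockout-labelled libraries.

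The Akr1c genes, which encode hydroxysteroid dehydrogenases and their relatives, held the member closest to the threshold. Akr1c13 (NM_013778) stood at 2.49 and 1.68 CPM in the knockout-labelled libraries and at 8.64 and 14.2 CPM in the controls, on 93 and 52 counts and on 237 and 351 counts. Both knockout-labelled libraries were far below both controls. The log2 fold change was -2.45 ± 0.33 (SE), a 5.45-fold lower level, with a 95% interval of -3.24 to -1.66 and an edgeR adjusted p of 0.0622. Akr1c13 was called lower in 6 of the 12 alternatives that kept every library, namely with no filter on low counts, the edgeR exact test, the robust quasi-likelihood fit, DESeq2 and limma-trend with either pseudocount, and over the 12 the adjusted p ran from 1.20e-07 to 0.124. Of all symbols tested, 17.4% were lower without overlap. The share was larger among the markers tested for ductal (6 of 14), hepatocyte (3 of 4) and fibroblast cells (4 of 12). It was nearer to 17.4% for myeloid (2 of 8, 25%) and lymphocyte markers (1 of 5, 20%). It was smaller for acinar (0 of 7), endocrine (0 of 2), endothelial (1 of 7) and mesothelial markers (1 of 7). In the other direction, 3 of 14 ductal (21.4%), 2 of 7 mesothelial (28.6%) and 1 of 7 acinar markers (14.3%) were higher without overlap. Over all symbols tested that share was 18.8%, and the remaining marker lists had 0. The part of any of these markers in the Akr1c13 values was not tested.

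Akr1c12, the near copy of Akr1c13, differed in the same direction at a lower level. It stood at 0.670 and 0.355 CPM in the knockout-labelled libraries and at 2.33 and 2.84 CPM in the controls (log2 fold change -2.31 ± 0.51, SE; edgeR adjusted p = 0.234). Akr1c12 was called lower in 4 of the 12 alternatives that kept every library, the same 4 as for Aldh1a1, with adjusted p from 0.00268 to 0.303 over the 12. Its count was 26.9% and 21.2% of that of Akr1c13 in the knockout-labelled libraries and 27.0% and 19.9% in the controls, so the ratio within the pair varied between libraries of 1 group more than between groups. Summed, the pair stood at 3.16 and 2.03 CPM in the knockout-labelled libraries and at 11.0 and 17.1 CPM in the controls.

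Of the same cluster on chromosome 13, Akr1e1 and Akr1c14 lay in the opposite direction. Akr1e1, at the end of the cluster and known as a 1,5-anhydrofructose reductase, stood at 32.0 and 10.1 CPM in the knockout-labelled libraries and at 4.85 and 7.26 CPM in the controls. The first knockout-labelled library was more than 3 times the second, which was itself close to the higher control. Akr1e1 had a log2 fold change of 1.80 ± 0.51 (SE; edgeR adjusted p = 0.388), and 0.72 without the first knockout-labelled library. It was called higher in 2 of the 12 alternatives that kept every library, DESeq2 and limma-trend with the pseudocount of 0.1, with adjusted p from 0.0119 to 0.775 over the 12. Akr1c14, a 3-alpha-hydroxysteroid dehydrogenase at the other end of the cluster, stood at 1.85 and 1.84 CPM in the knockout-labelled libraries and at 0.583 and 0.932 CPM in the controls (log2 fold change 1.28 ± 0.50, SE; edgeR adjusted p = 0.604).

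Between them, Akr1c19 was higher without overlap at 0.830 and 0.710 CPM in the knockout-labelled libraries and 0.146 and 0.689 CPM in the controls, where the nearest values were almost equal. Akr1c18, the 20-alpha-hydroxysteroid dehydrogenase, was not tested and had 12 and 8 counts in the knockout-labelled libraries and 5 and 2 counts in the controls. Akr1c6, Akr1c20 and Akr1c21 were not tested either and had at most 7 counts in any library. Akr1c21 had 2 and 2 counts in the knockout-labelled libraries and 6 and 7 counts in the controls, too few to read a direction from. For Akr1c6, a 17-beta-hydroxysteroid dehydrogenase, the count was 0 in the second knockout-labelled library and in the second control, where a count of 0 allows up to 0.0968 and 0.122 CPM, for counting error only. Outside the cluster, Akr1cl and the steroid 5-beta-reductase gene Akr1d1 had at most 7 counts in any library.

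None of the 5 aldehyde and aldose reductases of the Akr1a and Akr1b groups had an unadjusted p under 0.05. Akr1a1 stood at 403 and 382 CPM in the knockout-labelled libraries and at 305 and 333 CPM in the controls, higher without overlap (log2 fold change 0.30 ± 0.16, SE; edgeR adjusted p = 0.785). Akr1b8, known as a fibroblast growth factor-induced protein, stood at 68.6 and 45.5 CPM in the knockout-labelled libraries and at 32.9 and 52.1 CPM in the controls, where the groups overlapped (edgeR adjusted p = 0.853). Akr1b10 was even across libraries, at 23.1 and 22.9 CPM in the knockout-labelled libraries and 21.9 and 24.2 CPM in the controls, with a 95% interval of its log2 fold change from -0.36 to 0.35.

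Akr1b3, the mouse aldose reductase of the polyol pathway, lay between 5.60 and 6.54 CPM in all 4 libraries. Akr1b7, known from vas deferens and adrenal gland, stood at 0.321 and 0.387 CPM in the knockout-labelled libraries and at 0.838 and 0.770 CPM in the controls, lower without overlap on 12 to 23 counts (log2 fold change -1.18 ± 0.69, SE; edgeR adjusted p = 0.809). Akr7a5, a reductase of aflatoxin aldehyde and succinic semialdehyde, stood at 29.6 and 34.0 CPM in the knockout-labelled libraries and at 32.6 and 40.2 CPM in the controls (edgeR adjusted p = 0.921).

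Genes that act beside these enzymes were read from lists of related genes. For retinoid handling, 27 of 31 genes were tested and 0 passed edgeR in either direction. Of the fold changes, 15 were positive and 12 negative, with a median log2 fold change of 0.064. Without overlap, 6 (22.2%) were higher and 3 (11.1%) lower, against 18.8% and 17.4% over all symbols tested. Rdh10, a retinol dehydrogenase that supplies retinaldehyde, was abundant at 461 and 864 CPM in the knockout-labelled libraries and at 474 and 460 CPM in the controls. Dhrs3, which reduces retinaldehyde back to retinol, stood at 9.51 and 22.2 CPM in the knockout-labelled libraries and at 10.4 and 8.23 CPM in the controls (edgeR adjusted p = 0.747). Rdh10 was named after its values were seen.

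NRF2, encoded by Nfe2l2, is a transcription factor of the response to electrophiles, and several Aldh and Akr genes are among its known targets. Of the 24 genes listed with it, all were tested and 0 passed edgeR in either direction. In this list 22 fold changes were positive, where 48.4% of all symbols tested were. Without overlap, 10 (41.7%) were higher and 0 lower, against 18.8% and 17.4% over all symbols tested. The median log2 fold change of this list was 0.27. Gclc, the catalytic subunit of glutathione synthesis, stood at 766 and 476 CPM in the knockout-labelled libraries and at 230 and 309 CPM in the controls (log2 fold change 1.21 ± 0.27, SE; edgeR adjusted p = 0.243). Ephx1, the microsomal epoxide hydrolase, stood at 126 and 127 CPM in the knockout-labelled libraries and at 74.8 and 81.0 CPM in the controls (log2 fold change 0.70 ± 0.14, SE; edgeR adjusted p = 0.215). Hmox1, heme oxygenase and a target of the same factor, stood at 34.3 and 20.7 CPM in the knockout-labelled libraries and at 24.5 and 29.5 CPM in the controls, with overlap between the groups, and was named after its values were seen.

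For alcohol oxidation and the polyol pathway, 5 of the 10 genes in the tables were tested and 0 passed edgeR. Without overlap, 1 was higher and 1 lower, 20% each, against 18.8% and 17.4% over all symbols tested. Adh5, the formaldehyde-clearing alcohol dehydrogenase, stood at 168 and 153 CPM in the knockout-labelled libraries and at 158 and 169 CPM in the controls, and was likewise named after its values were seen. Khk, ketohexokinase, stood at 7.53 and 7.26 CPM in the knockout-labelled libraries and at 11.4 and 10.3 CPM in the controls (log2 fold change -0.55 ± 0.19, SE; edgeR adjusted p = 0.511). Cat was the one higher without overlap. It stood at 102.7 and 75.7 CPM in the knockout-labelled libraries and at 63.2 and 71.7 CPM in the controls (edgeR adjusted p = 0.7215). The alcohol dehydrogenase genes Adh1, Adh4, Adh6a and Adh7 were not tested and reached at most 0.437 CPM in any library.

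**Figure D4:**
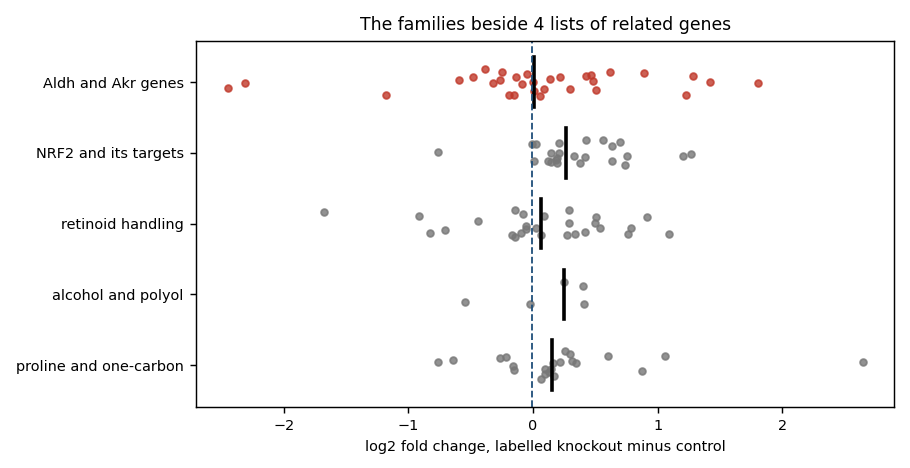
Log2 fold changes, labelled knockout minus control, of the tested members in red and of 4 lists of related genes in grey, with a black bar at each median and a dashed line at the median of all symbols tested. The NRF2 list has its median at 0.27 with 22 of 24 values above 0, where 48.4% of all symbols tested are above 0. The Aldh and Akr genes have their median at 0.0058 with values from -2.45 to 1.80.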

How the data were processed

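RNA-seq of total RNA from 4 cultures (TruSeq RNA v2 libraries, per the labels' protocols) was analysed from deposited tables. The authors deposited raw counts and RPKM, 1 line per RefSeq transcript, unnormalized for the counts and scaled by length and a library total for the RPKM, by the definition of the unit. The submitters' processing notes name mm9 and edgeR. For the aligner, the counter, its use of strand and the library total behind the RPKM, nothing is given in the sources used here.

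Raw counts were fitted in edgeR 4.0.16 (R 4.3.3): filterByExpr (minimum count 10, minimum total 15), TMM factors, quasi-likelihood F test, knockout minus control, Benjamini-Hochberg adjustment over the 20949 transcripts tested, threshold 0.05. The common biological coefficient of variation was 0.234. CPM is per TMM-scaled library, and an SE is the fold change over the root of F. Fits were tested on simulated data. Alternatives were other scaling, filters, tests and features, DESeq2 1.42.0, limma 3.58.1 on the authors' RPKM with pseudocounts of 1 and 0.1, and each library left out.

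Members and lists were chosen with earlier results of these data known. Named with all values were members with a mean CPM of at least 10 or an unadjusted p under 0.05. Genes of the lists of related genes were named from the 4 with the smallest p, and some of these were passed over. Those said to be named after their values were seen are exceptions. The promoter of Aldh1a7 was added after the values were seen. Promoters and gene order came from RefSeq (GRCm38.p6), transcripts from GENCODE M21, matched by accession for all 37 members, and no sample was left out. Intervals cover 95%. The values of 1 gene of the retinoid list are not reported here.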

Additional observations from a re-analysis of the deposited data

How the results depend on the processing

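The count of members called depended on the test. Against 0 higher and 0 lower in edgeR, the exact test called 1 higher and 2 lower, DESeq2 2 and 2, limma-trend on log2(RPKM + 1) 1 and 2, and limma-trend on log2(RPKM + 0.1) 2 and 2, while no filter on low counts and the robust fit each called 0 higher and 1 lower. These settings also called more transcripts of any gene, against 37 in the main fit. The exact test called 270, DESeq2 366, limma-trend 190 and 221 on the pseudocounts 1 and 0.1, no filter 79 and the robust fit 84. The other settings that kept every library called 0 members and fewer than 37 of all tested. Library totals and upper-quartile factors each called 5, DESeq2 size factors 26, the CPM filter 4 and a fit of 1 transcript per symbol 2. Summed counts called 5 symbols. Leaving out each library in turn, so that a lone library is assumed to vary like the other group, gave 0 to 7 higher and 0 to 5 lower. Each of these fits tested 31 members, among 21632 to 22943 transcripts. Far more transcripts of any gene were called in the fits without a knockout-labelled library than in those without a control. Because 1 group then holds a single library, the members called were not set against the share of all transcripts called. With library totals in place of TMM, 14 members instead of 9 were lower without overlap. That scaling also moved the median log2 fold change of all transcripts from -0.0089 to -0.084. The share of all symbols lower without overlap was not counted under it, so the 14 have no background to be set against. No paired analysis was possible because the labels pair no animals.

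Of the 24 members named with values, 16 kept their direction in all 16 alternatives. The other 8 changed sign in some, and the cause was not tested. Aldh2 was at -0.069 with library totals, -0.043 with upper-quartile factors, -0.0038 with DESeq2 factors, -0.0020 without a filter, -0.018 with a CPM filter, -0.0037 with DESeq2 and -0.017 with 1 transcript per symbol, and between -0.044 and 0.078 leaving out a library. Akr1b10 was at 0.0040 with summed counts and at 0.062 and 0.066 on RPKM (-0.077 to 0.11 leaving out a library). Aldh5a1 was at 0.0091 and 0.012 on RPKM (-0.21 to 0.049), and Aldh1l1 at -0.60 and -1.15 on RPKM (-4.00 to 1.07). Leaving out a library, Aldh1a2 ran from -0.89 to 1.30, Aldh1b1 from -0.32 to 0.079, Aldh1l2 from -0.18 to 0.87 and Aldh3b1 from -0.87 to 0.39.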

Other observations

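The partner enzymes of the amino acid and folate dehydrogenases gave 22 tested genes of 23, with 0 called by edgeR. Of the fold changes, 16 were positive and 6 negative, with a median log2 fold change of 0.15. Without overlap, 5 (22.7%) were higher and 1 (4.5%) lower, against 18.8% and 17.4% over all symbols tested. Oat, ornithine aminotransferase, whose product is the same intermediate that Aldh18a1 makes, stood at 164 and 139 CPM in the knockout-labelled libraries and at 65.2 and 79.9 CPM in the controls (log2 fold change 1.06 ± 0.18, SE; edgeR adjusted p = 0.122). Gldc, the glycine decarboxylase of the glycine cleavage system, stood at 6.59 and 50.5 CPM in the knockout-labelled libraries and at 4.12 and 4.99 CPM in the controls, with a log2 fold change of 2.65 (edgeR adjusted p = 0.448) and a single library far above the other 3. Amt, another protein of that system, stood at 4.42 and 5.23 CPM in the knockout-labelled libraries and at 8.02 and 7.01 CPM in the controls (edgeR adjusted p = 0.538). Aass, which begins lysine breakdown upstream of Aldh7a1, stood at 3.03 and 5.10 CPM in the knockout-labelled libraries and at 2.55 and 1.86 CPM in the controls (edgeR adjusted p = 0.671).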
